A study of Mus musculus with 10 samples.

Results

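Neutrophils are described from the supraspinatus enthesis of the mouse, where this shoulder tendon anchors to bone, at postnatal day 18 (P18). A cell counted as a neutrophil when it had at least 500 detected genes, at most 10% mitochondrial counts, at least 3 unique molecular identifiers (UMIs, counted RNA molecules) of Retnlg, and 0 UMIs of Cd79a (a B cell receptor chain), C1qa (a complement gene of macrophages) and Col1a2 (a collagen of connective tissue cells). These 4 genes chose the cells, so their levels are a description and not a finding. Of 5396 P18 cells that passed the first 2 criteria, 603 met the rule, a share of 11.2% with an exact Clopper-Pearson 95% interval of 10.35% to 12.05%. The intervals here cover counting error only.

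The cells came from 1 of 3 droplet (10x Genomics) libraries, made from entheses of wild-type C57BL/6J mice at P11, P18 and P56. The entheses of each age were pooled. After red cell lysis, cells stained neither by an antibody to Cd45, the protein common to leukocytes, nor by the dead-cell dye DAPI were sorted. Neutrophils in these files thus came through a sort set against leukocytes. Another 7 libraries were plates of 96 wells titled as Gli1-lineage cells, 1 for each of 7 ages from P7 to P42. They came from Gli1CreERT;Ai14 mice given tamoxifen in the first postnatal week, in which cells that use the Gli1 promoter, and the descendants of those cells, become red fluorescent. The wording of the plate sort does not settle whether red cells were kept. Each age was 1 library, with no replicate, so no difference was tested and no p-value is given.

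Neutrophils are short-lived phagocytes made in the bone marrow. While they mature they fill several kinds of granule in order: azurophil granules with serine proteases and myeloperoxidase at the dividing promyelocyte stage, specific granules with lactoferrin and cathelicidin later, and gelatinase granules with matrix metalloproteinases last. Mature cells stop dividing, lose most granule-protein mRNA, and carry the receptors for chemokines, formyl peptides and granulocyte colony-stimulating factor with which they reach and sense inflamed tissue. Retnlg encodes resistin-like gamma, a secreted protein of mature mouse neutrophils. Mmp8 and Mmp9 encode neutrophil collagenase and gelatinase B, and Slpi encodes a secreted inhibitor of neutrophil serine proteases.

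Promoters of genes from the early and the late end of this series are printed, since cells of both ends occurred among the 603. Transcription factors of the C/EBP family and PU.1 are known regulators of granulocyte genes. The spellings TTGCNNAA (C/EBP-type) and GAGGAAG (PU.1-type) were searched on both strands, from 250 bases before to 50 bases after the RefSeq start site. They were chosen from 7 spellings after the matches were seen. Each printed stretch holds 120 bases that end at or before the start site, read 5′ to 3′ on the gene's own strand from RefSeq sequence of build GRCm38.p6, with the matched letters in capitals.
Retnlg (chr16:48872358-48872477, + strand): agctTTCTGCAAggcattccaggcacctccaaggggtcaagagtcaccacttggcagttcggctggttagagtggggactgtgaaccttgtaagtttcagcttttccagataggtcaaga
Mmp8 (chr9:7558309-7558428, + strand): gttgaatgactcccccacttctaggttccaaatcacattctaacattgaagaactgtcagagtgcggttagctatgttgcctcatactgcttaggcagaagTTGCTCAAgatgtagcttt
Slpi (chr2:164356638-164356757, - strand): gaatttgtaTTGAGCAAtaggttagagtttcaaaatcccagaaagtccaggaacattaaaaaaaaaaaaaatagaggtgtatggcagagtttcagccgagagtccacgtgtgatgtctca
Ngp (chr9:110419614-110419733, + strand): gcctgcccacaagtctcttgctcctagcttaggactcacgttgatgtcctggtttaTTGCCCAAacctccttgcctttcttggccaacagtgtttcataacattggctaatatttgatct
Ctsg (chr14:56102705-56102824, - strand): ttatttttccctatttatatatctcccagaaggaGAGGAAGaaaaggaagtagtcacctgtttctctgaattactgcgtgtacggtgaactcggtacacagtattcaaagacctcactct

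The C/EBP-type spelling was in the promoters of Retnlg, Mmp8 and Slpi, the 3 of the 4 marker genes matched in the RefSeq table, and in 10.8% of all 32851 promoters of the same length. It was in 3 of 7 specific granule promoters (Lcn2, Ngp and Ltf), 2 of 5 gelatinase granule promoters (Adam8 and Mmp8) and in 1 of 5 azurophil promoters (Ms4a3). Placing a gene in 1 granule list, as with Mmp8 and Ms4a3, was a choice, and other placements were not tested. The PU.1-type spelling was in 4 of 5 azurophil promoters (Prtn3, Elane, Mpo and Ctsg) and in 13.6% of all promoters. It was also in 3 of 5 gelatinase granule promoters (Itgam, Mmp8 and Mmp25) and 2 of 7 specific granule promoters (Lcn2 and Pglyrp1). Among protease inhibitor genes, the C/EBP-type spelling was in 3 of 7 promoters and the PU.1-type spelling in 2 of 7. Each was in 1 of 4 promoters of calgranulin (S100) genes. Mmp8, Lcn2 and Stfa1 held both spellings. Because both spellings were chosen after the matches were seen, these shares cannot test whether either is enriched in a list. The spellings not chosen were mixed. A C/EBP palindrome and a longer PU.1 spelling had 0 matches in every list. A longer C/EBP spelling was in 1 of 3 marker promoters. A looser C/EBP spelling was in 3 of 3, and in 40.7% of all promoters. An ETS factor spelling was in 5 of 5 azurophil promoters and 23.8% of all. A match describes letters and is no evidence that a factor binds there.

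The 603 neutrophils held a median of 4471 UMIs (range 1171 to 56771) and 1071 detected genes, with a median of 0.324% mitochondrial counts. All 5396 P18 cells had medians of 7370 UMIs and 2113 genes. Barcodes shared between libraries were few: 2 neutrophil barcodes also occurred at P56 and 0 at P11. Comparison groups at P18 were set by 1 gene each, at 3 UMIs or more, with 0 to 2 UMIs of Retnlg and 0 UMIs of the other excluding genes. Cells with Ngp are called immature granulocytes (167 cells, median 17823 UMIs), those with C1qa macrophages (86 cells), those with Cd79a B cells (1737 cells) and those with Col1a2 mesenchymal cells (1247 cells). The label may not hold for every cell with Ngp, since that group also carried more connective tissue and cartilage transcripts than the neutrophils.

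The rule did not use Mmp9, Mmp8 and Slpi, but they were named as markers with earlier results of these data known. Their presence describes the cells and is no independent support for the label. Transcripts of all 3 of Mmp9, Mmp8 and Slpi were found in 498 of the 603 neutrophils, of 2 in 70 cells, of 1 in 31 cells and of none in 4 cells. Per cell, Mmp9 had a median of 10 UMIs (highest 52), Mmp8 a median of 9 (highest 48) and Slpi a median of 10 (highest 56). After every cell was thinned to 1000 UMIs, Mmp9 was seen in 77.3% of neutrophils, 15.6% of immature granulocytes and 0.161% of mesenchymal cells. Unthinned, 94.9% of neutrophils had a Mmp9 UMI, and macrophages had 0. Thinning left out 2 mesenchymal cells and 1 B cell that were shallower. Thinned Mmp8 was in 72.6% of neutrophils against 5.99% of immature granulocytes and 0.0803% of mesenchymal cells.

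The word mature did not hold for every cell. Of the 603, 49 had at least 3 UMIs of 10 cell cycle genes, and 9 of those also had at least 3 UMIs of Mpo, Elane, Prtn3 and Ctsg. The 49 cycling cells were large (median 19583 UMIs against 4311 in the other 554) and held 28.6% of all neutrophil UMIs. By Retnlg, 30 of the 49 lay between 3 and 9 UMIs, and 5 had 100 or more. All 9 cells with azurophil transcripts had 3 to 9 Retnlg UMIs. Values below are therefore given, where it matters, with and without the 49, a split chosen after seeing the data. The split may not take out every cell short of the mature state described above. In 201 cells, Ltf, Camp, Ngp, Lcn2 and Chil3 together took more than 5.54% of UMIs, with a median of 11.4%.

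Retnlg itself spread widely. The median was 162 UMIs per cell, the quartiles were 43.5 and 261, and the highest cell had 628. In 392 cells there were 100 or more UMIs, in 141 cells 10 to 99, and in 70 cells 3 to 9. Just outside the rule, 105 cells had 1 Retnlg UMI and 34 had 2. Just inside, 19 cells had 3 and 16 had 4. Cells with 2 UMIs had a median of 591 Camp, 643.5 Ngp and 0 Mmp8 UMIs, and cells with 3 UMIs had medians of 549 Camp, 527 Ngp and 0 Mmp8 UMIs. The minimum of 3 thus divided cells with closely similar granule transcripts.

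**Figure D1:**
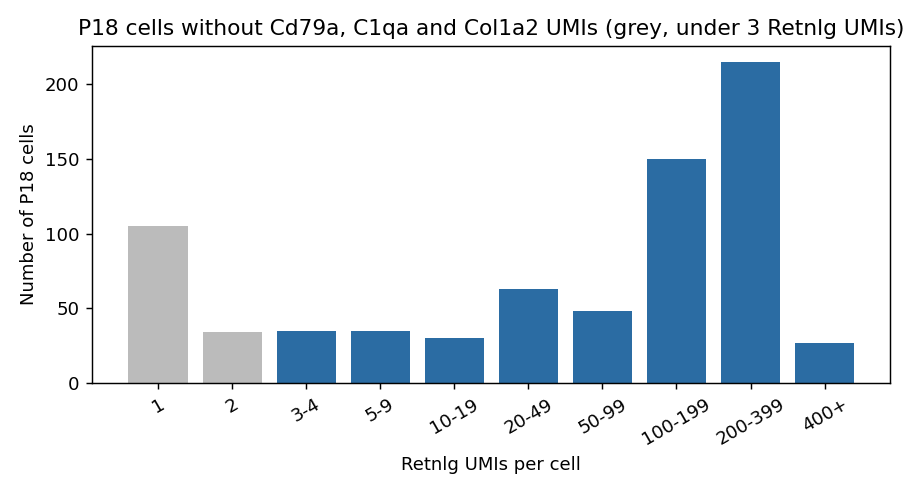
Number of P18 cells (y axis) by Retnlg UMIs per cell (x axis, unequal bins) among cells with 0 UMIs of Cd79a, C1qa and Col1a2; cells with 0 Retnlg UMIs are not drawn. Grey bars are the 105 and 34 cells below the minimum of 3, and the tallest blue bar is the 215 cells with 200 to 399 UMIs.

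Calgranulins, the calcium-binding S100 proteins that neutrophils carry in bulk, led the profile. S100a8 and S100a9 together made up 30.9% of all neutrophil UMIs. Levels are as CPM, a gene's summed UMIs scaled to the group's total, with an exact Poisson 95% interval. The S100a9 level was 160500 CPM (160100 to 160900) in neutrophils and 119700 CPM (119400 to 120100) in immature granulocytes. S100a8 stood at 148500 CPM and 123900 CPM in the same order. All 603 neutrophils had both transcripts, with medians of 771 UMIs of S100a9 and 659 of S100a8 per cell.

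S100a8 UMIs also turned up outside granulocytes, in 9.16% of thinned B cells, 5.81% of macrophages and 6.10% of mesenchymal cells, whose median depths were 4910, 8137 and 10174 UMIs. These shares are the level read as background for this gene, and the neutrophils were at 100%. For Retnlg the comparison groups give no such background, since they were limited to 0 to 2 Retnlg UMIs. Over all 5396 P18 cells, 1284 had a Retnlg UMI and 750 had 3 or more. Among cells with 0 UMIs of the excluding genes, 105 had 1 and 34 had 2. Many cells with 1 or 2 Retnlg UMIs thus also had an excluding gene.

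The other calgranulins separated the groups more. S100a6 was at 4494 CPM (4428 to 4562) in neutrophils against 243 CPM (227 to 260) in immature granulocytes, 18.5-fold higher. It was not a neutrophil gene here, since macrophages had 7018 CPM and mesenchymal cells 2600 CPM. S100a11 was 3.45-fold higher in neutrophils than in immature granulocytes (5760 against 1670 CPM), and passed 4-fold without the 49 cycling cells (7387 CPM).

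The comparison with immature granulocytes covered 6201 genes with at least 50 UMIs over both groups, Retnlg and Ngp left out. At least 4-fold higher in neutrophils were 283 genes (4.56%), and at least 4-fold lower were 287 (4.63%), counts under 3 being set to 3. The median log2 difference of all tested genes was -0.37, and -0.09 when the 20 most abundant genes were left out of the totals, which gave 369 higher and 155 lower. The direction of differences smaller than this shift depends on the scaling. Without the 49 cycling cells, 369 of 5778 genes (6.39%) were higher and 1235 (21.4%) lower, with a median of -0.49. The cycling cells were removed from the neutrophils alone, and 129 of the 167 immature granulocytes also had at least 3 cell cycle UMIs. Of the 283 higher genes 273 remained in that set, and of the 287 lower genes 256 did. The number of lower genes thus rested strongly on the 49 cells, and the number of higher genes much less.

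In the azurophil list (Elane, Mpo, Prtn3, Ctsg and Ms4a3), all 5 of 5 were at least 4-fold lower than in immature granulocytes. The share over all tested genes was 4.63%. The list had a median log2 difference of -3.74, or -9.92 without the 49 cycling cells. Elane, which encodes neutrophil elastase, was at 253 CPM (237 to 269) against 3150 CPM (3091 to 3211), 12.5-fold higher in the immature cells. Mpo, the gene of myeloperoxidase, was at 88.2 against 1776 CPM. Prtn3 (proteinase 3) was at 235 against 3142 CPM and Ctsg (cathepsin G) at 28.1 against 688 CPM.

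Few cells carried those azurophil transcripts. An Elane UMI was found in 2.99% of neutrophils, and 98.0% of all Elane UMIs lay in 6 cells. For Mpo that share was 97.7%, for Prtn3 94.4% and for Ctsg 95.4%. Without the cycling cells Elane was at 3.25 CPM and Mpo at 1.45 CPM, below the levels in mesenchymal cells (38.8 and 18.9 CPM). Elane was at 1002 CPM in the 70 cells with 3 to 9 Retnlg UMIs, 2.18 CPM in those with 10 to 99 and 3.51 CPM in those with 100 or more.

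Specific granule genes had much the same summed level in both granulocyte groups. None of 7 tested passed 4-fold in either direction, and their median log2 difference was 0.24. With 4.56% of all tested genes higher and 4.63% lower, the count of calls does not set the list apart. Camp, the gene of cathelicidin, was at 25940 CPM in neutrophils and 39900 CPM in immature granulocytes. Ltf (lactoferrin) was at 3934 against 3397 CPM and Lcn2 (lipocalin 2, which binds iron-carrying bacterial siderophores) at 12710 against 10760 CPM. Chil3, which encodes a chitinase-like protein, was at 5367 against 7120 CPM. Ngp (neutrophilic granule protein), which chose the immature group, was at 27870 CPM in neutrophils.

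These sums hid a wide spread from cell to cell. Camp UMIs per neutrophil had a median of 17 and a highest value of 2626, and 76.3% of cells had a UMI. Ltf was seen in 55.4% of neutrophils, with a median of 2 and a highest value of 276 UMIs. Lcn2 was seen in 93.7%. The share of a cell's UMIs taken by Ltf, Camp, Ngp, Lcn2 and Chil3 together ran from 0% to 19.9%, with a median of 2.64%.

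Of 6 gelatinase granule genes tested, 5 were at least 4-fold higher in neutrophils than in immature granulocytes and 0 lower. The shares over all tested genes were 4.56% and 4.63%. The list had a median log2 difference of 3.28 (3.71 without the cycling cells). It holds the preset markers Mmp8 and Mmp9, and its count depends on that choice of members. Mmp8 was at 1609 CPM (1570 to 1650) against 55.5 CPM (47.9 to 64.0), 29-fold higher. Mmp9 was at 1667 CPM (1627 to 1708) against 133 CPM (121 to 146), 12.6-fold higher. Adam8, a membrane metalloproteinase, was 11.5-fold higher (201 against 17.4 CPM), and Mmp25, which encodes a membrane-anchored matrix metalloproteinase, 4.55-fold higher (18.8 against 4.13 CPM). Itgam, the integrin chain of Mac-1, was the member under 4-fold, at 418 against 172 CPM.

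**Figure D2:**
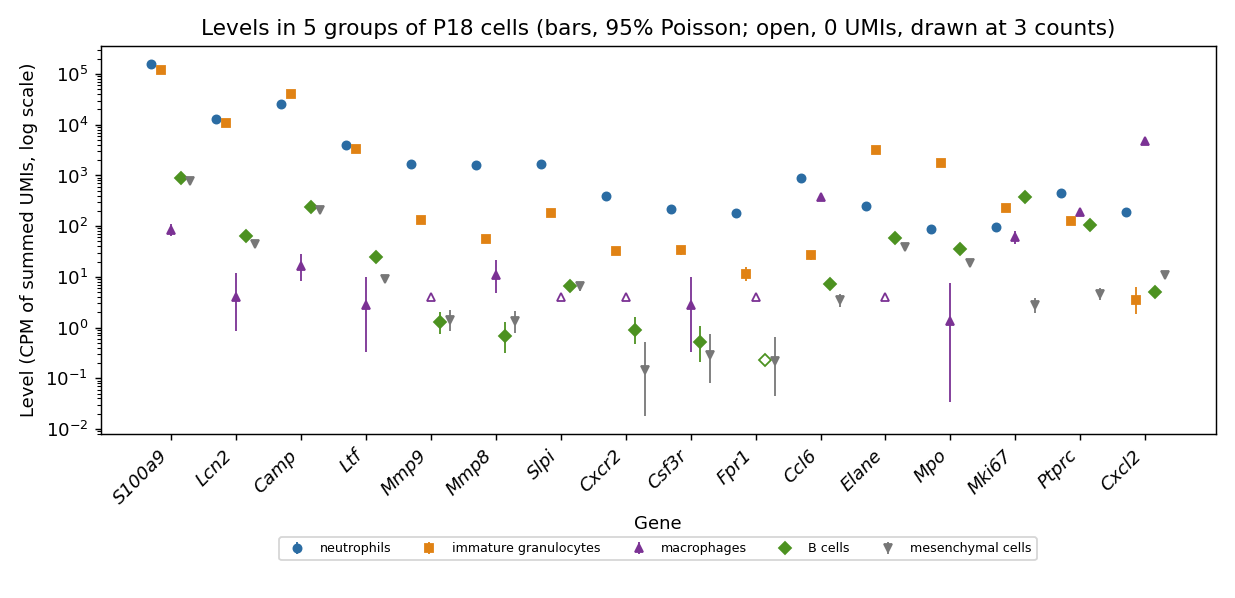
Level (y axis, CPM of summed UMIs, log scale) of 16 genes (x axis) in 5 groups of P18 cells, with exact Poisson 95% intervals as bars and open symbols at 3 counts where a group had 0 UMIs. Mmp8 and Mmp9 in neutrophils (1609 and 1667 CPM) lie above all other groups, while Elane and Mpo are highest in immature granulocytes (3150 and 1776 CPM).

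Of 10 genes tested for receptors and adhesion molecules of neutrophil trafficking, 5 were at least 4-fold higher than in immature granulocytes and 0 lower. The shares over all tested genes were 4.56% and 4.63%. The list had a median log2 difference of 1.89. Cxcr2, the receptor for neutrophil-attracting CXC chemokines, was at 400 CPM (380 to 420) against 32.8 CPM (27.0 to 39.5), 12.2-fold higher, and 84.1% of neutrophils had a UMI. Selplg (the P-selectin ligand) was 6.93-fold higher and the chemokine receptor Ccr1 8.48-fold. Itgal, the alpha chain of the integrin LFA-1, was 4.10-fold higher. Cxcr4, known for holding neutrophils in the marrow and for marking aged ones, was 1.99-fold higher (237 against 119.3 CPM), below its levels in macrophages (535 CPM) and B cells (461 CPM).

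Of 19 sensing receptors tested, 8 were at least 4-fold higher, 0 lower and 11 neither, with a median log2 difference of 1.59. Over all tested genes, 4.56% were higher and 4.63% lower. Fpr1, the receptor for bacterial formyl peptides, was at 184.6 CPM (171.3 to 198.6) against 11.5 CPM (8.19 to 15.7), 16.0-fold higher. Csf3r, the receptor for granulocyte colony-stimulating factor, was 6.57-fold higher. Clec4d, a C-type lectin receptor, was 37.7-fold higher, at 479 CPM against 12.7 CPM. Il1r2, the decoy receptor for interleukin 1, was 7.63-fold higher, and Ptafr, the receptor for platelet-activating factor, 7.92-fold. Tlr4, the lipopolysaccharide receptor, was low in both, at 11.1 and 13.3 CPM with overlapping intervals.

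Cytokine and chemokine transcripts were at least 4-fold higher than in immature granulocytes for 6 of 10 genes tested, with 0 lower. The shares over all tested genes were 4.56% and 4.63%. The list had a median log2 difference of 2.79. Ccl6, a CC chemokine of myeloid cells, was the most widespread, at 898 CPM against 26.9 CPM and with a UMI in 65.5% of neutrophils. Il1rn, the interleukin 1 receptor antagonist, was at 78.4 against 5.91 CPM and seen in 35.0% of cells. Il1b was at 90.7 against 9.74 CPM and seen in 17.6% of cells.

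Cxcl2, a ligand of Cxcr2, behaved differently from cell to cell. Its level was 189 CPM against 3.54 CPM, but 15.3% of neutrophils had a UMI, 14 cells had 10 or more, and 62.7% of its UMIs lay in 6 cells. The highest cell had 257 UMIs. Ccl4 was likewise uneven, with 84.8% of its 92 UMIs in 6 cells. Macrophages exceeded neutrophils for both, at 4809 CPM of Cxcl2 and 98.3 CPM of Ccl4. Tnf was at 18.8 CPM in neutrophils, 14.8 CPM in immature granulocytes and 463 CPM in macrophages.

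Genes of the NADPH oxidase, the enzyme of the respiratory burst, were present in both granulocyte groups, and 0 of 6 passed 4-fold. With 4.56% of all tested genes higher and 4.63% lower, that count does not set the list apart. The median log2 difference of the 6 genes was 0.22. Cybb, the catalytic subunit, was at 864 against 950 CPM. Ncf1 (p47phox) was at 738 against 280 CPM, while Cyba, the partner of Cybb in the membrane, was at 1845 against 1825 CPM.

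Among transcription factors, 1 of 12 passed 4-fold higher and 0 passed lower, with a median log2 difference of 0.51. Of all tested genes, 4.56% were higher and 4.63% lower, so these counts do not set the list apart. The higher factor was Klf2, a zinc finger factor, at 234 against 48.1 CPM. Cebpe, known for driving specific granule genes, was at 591 against 737 CPM and Spi1, which encodes PU.1, at 653 against 395 CPM. Gfi1, a repressor needed for granulocyte formation, had 18 UMIs in neutrophils (4.64 CPM) and 13 CPM in immature granulocytes. Junb, a subunit of the AP-1 factor, was at 256 against 72.4 CPM. Without the cycling cells Junb also passed 4-fold higher (306 CPM), and Myb, a factor of dividing progenitors, 4-fold lower (5.78 against 35.7 CPM).

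Cell cycle genes had a median log2 difference of -1.46 with 1 of 10 at least 4-fold lower, and of -6.76 with 10 of 10 lower once the 49 cells that this list itself selected were removed. Of all tested genes, 4.63% were lower with the 49 cells and 21.4% without them. Mki67, the proliferation marker, was at 95.6 CPM in all neutrophils and 225 CPM in immature granulocytes. A Mki67 UMI was found in 44.3% of cells with 3 to 9 Retnlg UMIs and in 1.53% of cells with 100 or more. Of the 5 survival genes tested 0 passed 4-fold. With 4.56% of all tested genes higher and 4.63% lower, that count does not set the survival list apart. Mcl1, on which neutrophil survival is known to depend, was at 583 against 229 CPM.

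Ptprc encodes Cd45, the antigen used to leave leukocytes out of the sort. Its level in neutrophils was 456 CPM (435 to 477), above immature granulocytes (125 CPM), macrophages (194 CPM) and B cells (105 CPM), and far above mesenchymal cells (4.63 CPM). A Ptprc UMI was found in 91.9% of neutrophils, and in 43.6% after thinning to 1000 UMIs against 0.161% of mesenchymal cells. Of 7 leukocyte genes tested, 0 passed 4-fold over immature granulocytes, or 1 (Ptprc, at 580 CPM) without the cycling cells. The shares higher over all tested genes were 4.56% and 6.39%, so these counts do not set the list apart. Tyrobp, an adaptor of activating receptors, was at 3179 against 1136 CPM. The Ptprc transcript was present in cells collected as unstained for the protein. Leukocytes of other kinds were also common among the 5396 P18 cells, with 1737 B cells, 167 immature granulocytes and 86 macrophages beside the 603 neutrophils. Whether surface Cd45 was absent, below the gate or lost in digestion, or whether the sort let stained cells through, was not tested. The share of neutrophils in the library is a share of cells that came through this sort and not of the tissue.

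Against the non-granulocyte groups, 277 of 12092 genes (2.29%) were at least 4-fold higher in neutrophils than in all of macrophages, B cells and mesenchymal cells. The 12 largest were Stfa2, Mmp9, Stfa2l1, Asprv1, Slpi, Gm5483, Lcn2, S100a9, Stfa3, Ltf, Wfdc21 and BC100530. Of these, 5 are members of the stefin family of cysteine protease inhibitors. Asprv1, a retroviral-like aspartic protease, was at 1131 CPM with a UMI in 80.6% of neutrophils, against 47.3 CPM in immature granulocytes, and was seen in 0% of thinned macrophages.

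Among all genes, the 12 with the largest excess over immature granulocytes were H2-Q10, Trim30b, Cxcl2, Ankrd33b, Trpm2, Gcnt1, St3gal6, Clec4d, Dhrs9, Prok2, Ccl6 and Hacd4. H2-Q10, a class Ib histocompatibility gene with close paralogs among which reads may be split, was at 80.2 CPM against 1.18 CPM. Dhrs9, a short-chain dehydrogenase, was at 94.9 against 2.66 CPM, and Prok2, a secreted prokineticin, at 60.6 against 1.77 CPM. Trim30b was at 54.1 CPM with 1 UMI in all immature granulocytes. Gcnt1 and St3gal6 encode glycosyltransferases that build selectin ligands, and were at 36.3 and 35.3 CPM against 0.886 and 0.295 CPM.

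The 12 largest in the other direction were Itm2a, Ctsg, Mpo, Mybbp1a, Clec4b2, Cst7, Srm, Emilin1, Clpp, Galk1, Prtn3 and Elane. Apart from the azurophil genes these were sparse in neutrophils, from 3 UMIs of Itm2a, Mybbp1a and Clec4b2 to 11 UMIs of Cst7, which encodes cystatin F. Itm2a and Emilin1 were also seen in 50.2% and 11.4% of thinned mesenchymal cells. The immature granulocytes held 290.6 CPM of 4 mesenchymal genes against 66.8 CPM in neutrophils, and 314.5 against 53.4 CPM of 3 cartilage genes. Whether cells of other types in that group account for some of the lower genes was not tested. Itm2a had a log2 difference of 0.24 instead of -4.80 when cells with Cd79a, C1qa or Col1a2 UMIs were not excluded.

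Defining markers of mesenchymal, cartilage, B cell, macrophage, eosinophil, endothelial and mast cell types were low. For mesenchymal, cartilage, B cell and macrophage genes this was partly set in advance. The rule left out cells with Col1a2, Cd79a or C1qa UMIs, and the groups of those types were chosen by the same genes. Summed levels in neutrophils and in their own type were 66.8 against 73460 CPM for 4 mesenchymal genes, 53.4 against 33620 CPM for 3 cartilage genes, 29.1 against 5980 CPM for 5 B cell genes and 38.7 against 10130 CPM for 6 macrophage genes. Eosinophil genes summed to 2.32 CPM with 3 of 4 at 0, endothelial genes to 0.773 CPM with 3 of 4 at 0, and mast cell and basophil genes to 0.516 CPM with 3 of 4 at 0. Single cells made up part of the rest: 94.0% of Cd74 UMIs lay in 6 cells, 1 of which had 355, and all 76 Pf4 UMIs lay in 4 cells, 1 of which had 73. Erythroid genes summed to 52.1 CPM, T and NK cell genes to 54.4 CPM, dendritic cell genes to 117 CPM and platelet genes to 20.6 CPM. The osteoclast list summed to 1668 CPM, of which Mmp9 was 1667. Monocyte genes summed to 557 CPM, against 762 CPM in immature granulocytes and 1529 CPM in macrophages.

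The neutrophils differed among themselves along the share of UMIs in Ltf, Camp, Ngp, Lcn2 and Chil3. The cells were ordered by that share and divided into 6 equal bins, from the lowest (bin 1, 0% to 0.266%) to the highest (bin 6, 11.4% to 19.9%). The bins are ranges of 1 continuous measure and not cell types. Depth moved with them, from a median of 2575 UMIs in bin 1 to 10920 in bin 6, and its part in the pattern was not tested. Summed levels are given per bin.

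Ccl6 was at 3858 CPM in bin 1, 568 CPM in bin 4 and 6.83 CPM in bin 6. Clec4d went from 1977 CPM in bin 1 to 20.5 CPM in bin 6, and S100a6 from 9062 to 825 CPM. Csf3r was at 998 CPM in bin 1 and 49.3 CPM in bin 6. Cxcr2 was at 894 CPM in bin 1, slightly higher in bin 2 (945 CPM) and at 108 CPM in bin 6. Cxcr4 was at 1075 CPM in bin 1, 425 CPM in bin 2 and 73.6 CPM in bin 6. Fpr1 was highest between the ends, at 192 CPM in bin 1, 356.5 CPM in bin 3 and 74.3 CPM in bin 6.

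Slpi went down at every step, from 3873 CPM in bin 1 to 567 CPM in bin 6. Cebpe ran the opposite way, from 203 CPM in bin 1 to 851 CPM in bin 6. Fcnb, an early granulocyte lectin, was at 0 UMIs in bins 1 and 2, highest in bin 5 (519 CPM) and at 445 CPM in bin 6. In bins 3 and 4 its UMIs came from 0.99% and 2% of cells. The bins include the cycling cells. Retnlg and the collagenase gene Mmp8 peaked between the ends. Retnlg was at 34570 CPM in bin 1, 56400 CPM in bin 2, 56040 CPM in bin 3 and 3519 CPM in bin 6. Mmp8 was at 1157 CPM in bin 1, 2501 CPM in bin 4 and 624 CPM in bin 6.

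**Figure D3:**
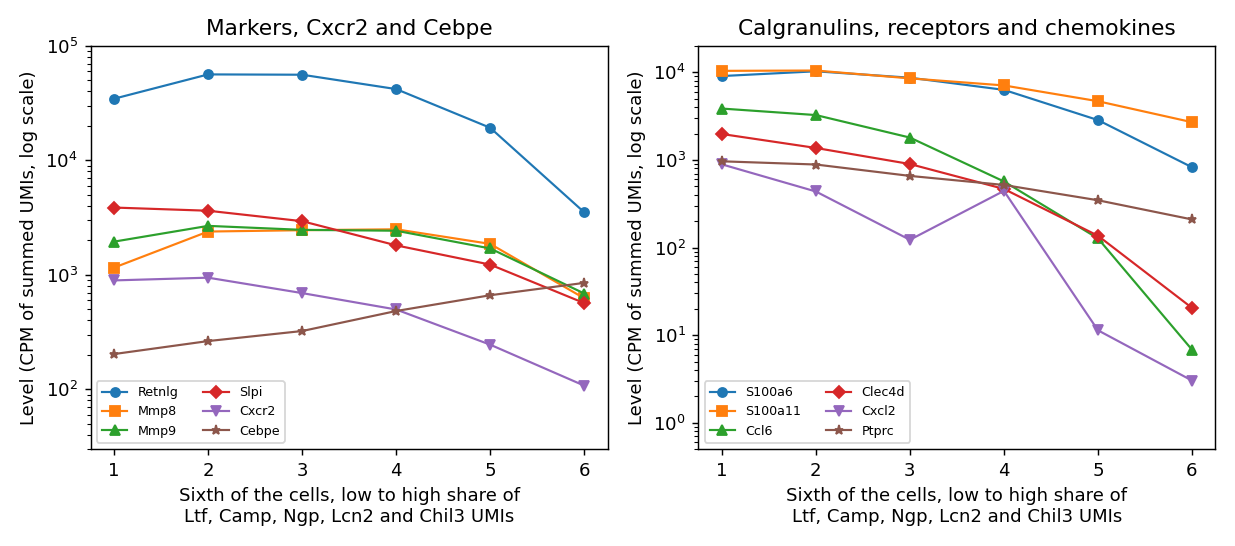
Level (y axis, CPM of summed UMIs, log scale) of 12 genes in 6 equal bins of neutrophils ordered by their share of Ltf, Camp, Ngp, Lcn2 and Chil3 UMIs (x axis, low to high). Ccl6 goes from 3858 CPM in bin 1 to 6.83 CPM in bin 6, Cebpe from 203 to 851 CPM, and Mmp8 is highest in bin 4 at 2501 CPM.

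Rank correlations over cells gave the same order as a description. Across 603 cells, the CPM of Ccl6 and the granule share had Spearman's rho of -0.82, Clec4d -0.81, S100a11 -0.72, Slpi -0.59, Cxcr2 -0.52, Ptprc -0.47 and Retnlg -0.42. Cebpe had 0.51 and Mmp8 0.01. In the 554 cells without the cycling ones, Ccl6 had -0.81, Clec4d -0.78, Retnlg -0.29 and Mmp8 0.21. All cells share 1 library, and both quantities of each pair are divided by the same cell total.

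**Figure D4:**
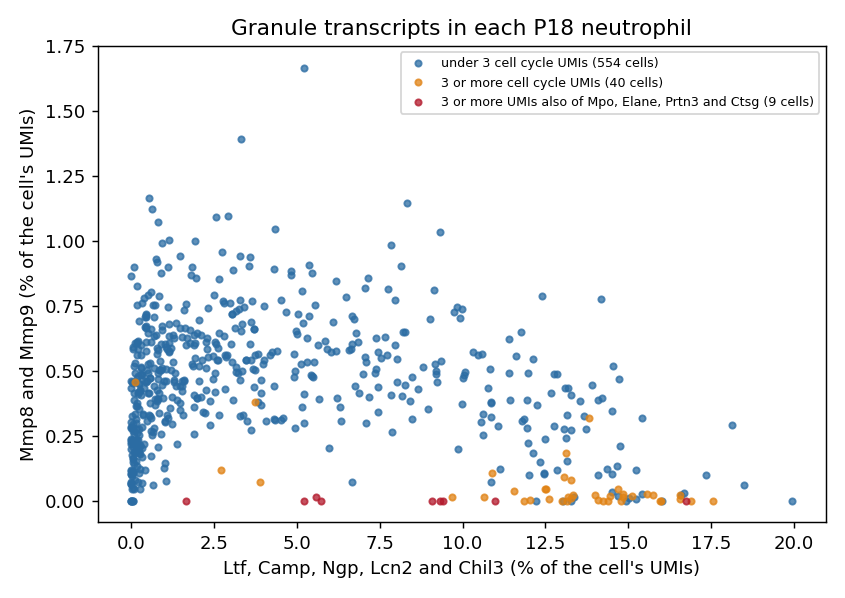
Each point is 1 of 603 neutrophils, with the percent of its UMIs in Ltf, Camp, Ngp, Lcn2 and Chil3 (x axis) and in Mmp8 and Mmp9 (y axis). The 554 cells under 3 cell cycle UMIs spread over the plot, while most of the 49 cycling cells lie near 0 on the y axis, the 9 with azurophil transcripts among them.

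Stefin transcripts varied widely between neutrophils, also among those rich in Retnlg. Stefins are small cytosolic inhibitors of cysteine proteases such as cathepsins, and their mouse genes lie in a cluster. In build GRCm38 the 6 counted here lie on chromosome 16, from Stfa2l1 (starting at 36156811) to Stfa3 (ending at 36455392), with Gm5483, Stfa1, BC100530 and Stfa2 between them. Summed over the 6, cells had from 0 to 1908 UMIs, with a median of 83, a 10th percentile of 1 and a 90th percentile of 513. Fewer than 10 UMIs were found in 113 cells, 10 to 99 in 215 and 100 or more in 275. These ranges were set after the values were seen, and 14 cells lay between 8 and 12 UMIs and 61 between 80 and 120.

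In the highest cell the stefins took 20.7% of all UMIs. By contrast, S100a9 ran from 274 UMIs at the 10th percentile to 2150 at the 90th. Median depth was 7053 UMIs in the cells under 10 stefin UMIs, 4247 in those with 10 to 99 and 4348 in those with 100 or more. The part of depth in the stefin spread was not tested. The stefin level moved with the granule share: its median per cell was 37910 CPM in bin 1 and 1547 CPM in bin 6, and bins 5 and 6 held 33 and 41 of the 113 cells under 10 UMIs. The median granule share was 8.80% in the lowest stefin range and 1.59% in the highest. Of the 113 cells, 57 had 100 or more Retnlg UMIs. Mmp8 was at 1585 CPM in the lowest stefin range and 1636 CPM in the highest, and Mmp9 at 1463 and 1766 CPM. Camp was higher in the lowest range, at 35040 against 22200 CPM.

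**Figure D5:**
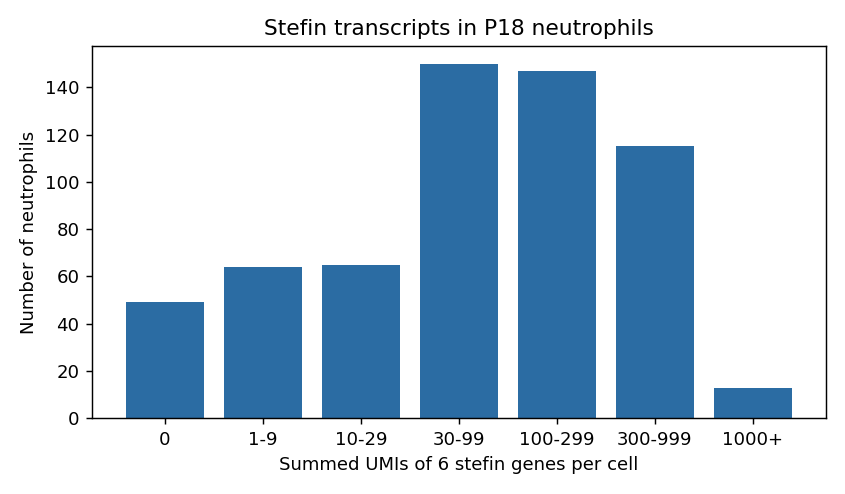
Number of neutrophils (y axis) by summed UMIs of 6 stefin genes per cell (x axis, unequal bins). 49 cells had 0 UMIs and 13 had 1000 or more, with the tallest bar, 150 cells, at 30 to 99.

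The stefin genes went together from cell to cell. Spearman's rho between the CPM of 2 of them ran from 0.50 (Stfa3 and Stfa2l1, and Stfa3 and Gm5483) to 0.81 (Stfa2 and BC100530) over 603 cells of 1 library. Their transcripts are related, which limits what a count of 1 gene means: Stfa2 and Stfa2l1 were 96.5% identical over 367 aligned columns, and the other 14 pairs were 66.7% to 82.5% identical. How reads matching several genes were counted is not given in the sources used here, so the genes are reported singly as uncertain. BC100530 was at 10520 CPM in neutrophils against 4447 CPM in immature granulocytes, Stfa1 at 6785 against 3085 CPM and Stfa2 at 2492 against 245 CPM. Within the list of 10 protease inhibitor genes, which holds the marker Slpi, 4 were at least 4-fold higher and 0 lower. The shares over all tested genes were 4.56% and 4.63%. The list had a median log2 difference of 1.19.

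The same rule found 6 of 2952 cells at P11, a share of 0.203% (0.0746% to 0.442%), and 0 of 5131 cells at P56 (0% to 0.0719%). Without the 3 excluding genes there were 15 cells with 3 or more Retnlg UMIs at P11, 750 at P18 and 0 at P56. No P56 cell had a single Retnlg UMI. The 6 cells at P11 had 7 to 156 Retnlg UMIs. Each had UMIs of Mmp9, Mmp8, Slpi, Cxcr2, Ptprc and Stfa1, none had Mpo or Elane, and 2 had Camp. With 1 pooled library per age, a difference in age cannot be told apart from a difference in dissection, lysis or gate.

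The exclusion genes removed 147 of the 750 P18 cells with 3 or more Retnlg UMIs, of which 101 had Col1a2, 56 Cd79a and 3 C1qa UMIs. Counting them gives a share of 13.9%. The Gli1-lineage plates held 672 wells in which Retnlg, Mmp9, Mmp8, S100a8, S100a9, Ngp and Camp had 0 counts, and Slpi had 7 counts in 4 wells at P21.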

How the data were processed

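Single-cell RNA was measured in 3 droplet libraries and 7 plates. The authors deposited whole-number counts per gene and barcode or well, with gene names and barcodes in separate name files; no normalization was found in them. The build was mm10, per the submitters' processing notes; the aligner and the treatment of reads that match several genes are not given in the sources used here. The P18 droplet library held 53725468 UMIs in 5588 barcodes, and the plates 240498 to 507431 counts each.

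UMIs were summed over the cells of each group and scaled to CPM, with exact Poisson 95% intervals; shares have Clopper-Pearson 95% intervals. Both cover counting error only. A gene was called at 4-fold or more, among genes with at least 50 UMIs over the groups, with counts under 3 set to 3. The fold rule was tested on simulated data. For shares, each cell was thinned to 1000 UMIs. Doublets were left in; scrublet, as run by scanpy 1.11.5, marked 0.0185% of cells and so had not worked, and removal of the highest scores (233 cells, 9 of them neutrophils) was an alternative. Python 3.11.15, numpy 2.4.6, scipy 1.17.1 and pandas 2.3.3 were used.

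Named genes were all genes of the lists, the 20 with the highest level and the 12 with the largest fold each way, or over 3 other groups. Members and lists were chosen with earlier results of these data known. Sequences came from RefSeq tables (GRCm38.p6), gene positions and transcripts from GENCODE vM21. Samples were grouped by the age in their titles. The P11 cells were too few for a comparison of levels. Alternatives covered the Retnlg minimum, gene and mitochondrial limits, the exclusion genes, doublets, the UMI minimum, scaling and the Ngp minimum. Some members of the lists are not reported here by name.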

Additional observations from a re-analysis of the deposited data

How the results depend on the processing

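The share of 11.2% became 9.88% with at least 10 Retnlg UMIs, 8.97% with at least 30, 7.93% with at least 1000 detected genes, 13.9% with no exclusion genes and 10.3% without the 49 cycling cells. It was 11.3% with at least 200 genes, 11.97% with at most 5% mitochondrial counts and 11.5% without the highest doublet scores. The 283 higher genes became 181 with at least 1000 genes per cell and 162 with at least 200 UMIs over both groups, and lay between 280 and 412 under the other alternatives. The 287 lower genes became 919 and 1191 with at least 10 and 30 Retnlg UMIs, 1235 without the cycling cells, 1043 with the mean of each cell's CPM, 746 with at least 1 UMI over both groups, 184 with at least 1000 genes per cell, 155 without the 20 most abundant genes, 151 with an Ngp minimum of 30, 106 with no exclusion genes and 87 with at least 200 UMIs. The causes were not tested; the UMI minimums also change how many genes are tested. Genes of other cell types changed sign. With no exclusion genes and with an Ngp minimum of 30, the log2 difference was 0.58 and 0.77 for Col2a1, 0.10 and 0.52 for Comp, 1.02 and 1.23 for Dcn and 0.71 and 0.70 for Sparc. It was 0.24 for Itm2a with no exclusion genes and -0.26 for Pf4 without the highest doublet scores. The alternative without cycling cells was chosen after seeing the data. No paired analysis was possible because no group has more than 1 sample. Genes under about 50 UMIs are limited by depth.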

Other observations

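Other gene groups of the neutrophils, from lists not described above, lay as follows. Of 11 glycolysis and glycogen genes, 1 was at least 4-fold higher than in immature granulocytes and 0 lower, with a median log2 difference of 0.06. Of all tested genes 4.56% were higher. The higher gene of the list was Slc2a3, a high-affinity glucose transporter, at 238 against 54.9 CPM. Pygl, which encodes glycogen phosphorylase, was at 470 against 238 CPM, and Gapdh at 1639 against 1683 CPM. Among 4 leukotriene genes, 1 was at least 4-fold higher: Pla2g7, an enzyme that breaks down platelet-activating factor, at 77.8 against 4.43 CPM. Alox5ap, which presents arachidonic acid to 5-lipoxygenase, was at 1557 against 826 CPM.

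The interferon-induced list summed to 974 CPM in neutrophils, 388 CPM in immature granulocytes and 500 CPM in macrophages, and Ifitm3, an antiviral membrane protein, was 760.4 CPM of the neutrophil sum. Of 6 tested genes, 2 were at least 4-fold higher than in immature granulocytes and 0 lower. The shares over all tested genes were 4.56% and 4.63%. Rsad2, which encodes the antiviral protein viperin, had 65 UMIs in neutrophils against 0 in immature granulocytes, at least 18.9-fold higher, and 61.5% of its UMIs lay in 6 cells. Irf7, a transcription factor of the interferon response, was at 30.4 against 6.20 CPM. All 20 UMIs of Ifit3 lay in 5 cells, 15 of them in 1.

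The 4 T and NK cell genes were mixed. Of 2 tested, 1 (Cd3d) was at least 4-fold higher than in immature granulocytes and 1 lower, against 4.56% and 4.63% of all tested genes. The list summed to 54.4 CPM in neutrophils and 213.5 CPM in immature granulocytes. Cd3d, part of the T cell receptor complex, had 139 UMIs in neutrophils (35.8 CPM, 30.1 to 42.3) and a UMI in 15.1% of cells, while Cd3e and Trac had 0 UMIs and Cd3g 5. Cd3d was at 2.07 CPM in immature granulocytes, and was seen in 18.9% of cells with 100 or more Retnlg UMIs against 8.57% of cells with 3 to 9. Cd3d and Cd3g lie next to each other on chromosome 9 in opposite orientations.

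Sex-linked transcripts differed in share between groups of the same pooled library. After thinning to 1000 UMIs, Xist, expressed from the inactive X chromosome, was seen in 2.16% of neutrophils (1.15% to 3.66%) and transcripts of 4 Y-linked genes in 7.13% (5.21% to 9.49%). In immature granulocytes the shares were 8.38% and 2.40%, in macrophages 29.1% and 4.65%, in B cells 26.9% and 14.3%, and in mesenchymal cells 19.8% and 8.35%. Unthinned, 65 neutrophils had an Xist UMI, 179 a Y-linked UMI and 6 both. How many mice of each sex were pooled is not given in the sources used here.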
